A study of Mus musculus with 7 samples.

Results

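Actins and tropomyosins are the proteins of the thin filament, and their genes were followed here in muscle stem cells (MuSCs) of WT and Jag2sm mice. The 9 genes are Acta1, Actc1, Acta2, Actb and Actg1 for actin and Tpm1, Tpm2, Tpm3 and Tpm4 for tropomyosin. They were chosen by symbol among the 56748 genes of the count files, and all 9 were found by their Ensembl identifiers. Of these, 8 passed the filter on low counts and Actg1 did not. Hind limb muscles of adult mice gave the MuSCs, by depletion of CD31+, CD45+ and Sca1+ cells and selection for integrin α7, and the labels' protocol describes culture of such cells in growth medium with serum and bFGF. The WT group holds 3 RNA samples. The Jag2sm group holds 4 samples that are homozygous for a naturally occurring missense allele in the first EGF repeat of Jag2, a NOTCH ligand. The paper treats this allele as a hypomorph, whereas the genotype tag of the labels reads Jag2-/-. The comparison of both groups asks how a weakened Jag2 changes gene expression in MuSCs. The allele is carried by all cells of the animal, and neither the labels nor the methods say whether each sample came from a separate animal, so p-values measure the spread between these samples, which may be technical.

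Actin polymerizes into filaments, and tropomyosin dimers lie along them and set which motors and binding proteins have access. Vertebrates have striated muscle actins for the sarcomere, a smooth muscle actin, and cytoplasmic actins for the cortex, stress fibers and cell motility. Myoblasts carry mostly cytoplasmic actins, and myoblasts that differentiate into myotubes switch on the striated forms together with the muscle tropomyosins. Each tropomyosin gene gives several proteins through alternative promoters and splicing, so a count on the gene sums over muscle and nonmuscle products.

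Reads counted on genes numbered between 187834 and 1937581 per library. WT replicate 1 was the shallowest, and its aligned reads fell outside genes in 45.1% of cases, where the other libraries had 20.8% to 25.7%. Reads that did not align made up 50.8%, 46.7% and 46.0% in Jag2sm replicates 1, 2 and 4, but 3.07% in Jag2sm replicate 3 and at most 3.24% in WT libraries. WT replicates 2 and 3 differed by a chi-square of 2.12 per gene and Jag2sm replicates 2 and 4 by 2.71, whereas all other pairs of a genotype differed by 8.94 to 10.7. Both close pairs differed by more than counting noise alone, which does not show whether they are separate cultures or repeat libraries. Each library was counted as 1 replicate, as labelled, and the values with each close pair summed are given beside the calls that this ends. Jag2 itself had 80.7 to 115.7 CPM (read counts scaled by TMM to a common library size) in WT and 42.4 to 78.8 in Jag2sm libraries. All 10 MuSC and myoblast markers examined passed the filter, and their summed level was 3553 to 6104 CPM in WT and 2347 to 2869 in Jag2sm libraries. Of this sum Des, a muscle intermediate filament gene, had 1807 to 4600 CPM in WT and 706 to 1103 in Jag2sm libraries. Pax7, a transcription factor of MuSCs, had 28.8, 95.7 and 80.6 CPM in WT and 100, 129, 172 and 125 in Jag2sm libraries. It was thus higher in Jag2sm without overlap, but did not pass (log2 fold change 0.80, edgeR adjusted p = 0.174). Myod1, a myogenic factor of myoblasts, had 697 to 830 CPM in WT and 615 to 806 in Jag2sm libraries, which overlapped. The summed markers of endothelial cells reached at most 14.1 CPM in any library and those of immune cells at most 4.08. The summed fibro-adipogenic markers lay at 5.76 to 25.9 CPM in WT and 23.7 to 45.6 in Jag2sm libraries, with Dpt and Lum at 0 in all of them. Part of these sums was Cd34, which is also among the MuSC and myoblast markers. Cd34 had 0 to 13.3 CPM in WT and 2.96 to 28.5 in Jag2sm libraries.

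The actin genes are close relatives on different chromosomes, which bears on how reads are assigned. Over their coding sequences the 5 actin genes were 81.5% to 88.7% identical, with Actb and Actg1 the closest pair, and the longest stretch shared without a mismatch between any 2 of the canonical transcripts was 77 bases, between Acta1 and Actb. The first 30 coding bases are shown because they hold the start of the amino terminus, where muscle and cytoplasmic actins differ most. Capitals mark bases that differ from Acta1, and the sequences come from GENCODE M39.
Acta1: atgtgcgacgaagacgagaccaccgctctt
Actc1: atgtgTgacgaCgaGgagaccaccgctTtG
Acta2: atgtgTgaAgaGgaAgaCaGcacAgcCctG
Actb: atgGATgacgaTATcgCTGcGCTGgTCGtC
Actg1: atgGAAgaAgaaATcgCCGcACTcgTCAtt
In this window the other muscle actins differed from Acta1 at 5 bases in Actc1 and 9 in Acta2, and the cytoplasmic actins at 17 bases in Actb and 15 in Actg1. The muscle actins encode 377 codons and the cytoplasmic actins 375, without the stop. Among the tropomyosins, coding identity was 78.5% between Tpm1 and Tpm2 and 64.7% to 73.7% for the other pairs over all aligned positions, and the longest shared stretch was 37 bases. The canonical transcripts of Tpm1 and Tpm2 encode 284 codons and those of Tpm3 and Tpm4 encode 248.

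Actin genes of muscle are known to be driven by serum response factor through CArG boxes, so the 100 bases before the start are shown for Acta1 and Actc1, which changed together, and for Acta2, which did not pass the test. Capitals mark the CArG box. The sequences are from the RefSeq promoter table on GRCm38.p6, a different build from that of the counts, and lie on the minus strand at chr8:123894776-123894875, chr2:114052876-114052975 and chr19:34255374-34255473.
Acta1: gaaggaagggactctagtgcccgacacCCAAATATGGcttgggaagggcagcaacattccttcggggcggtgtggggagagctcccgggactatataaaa
Actc1: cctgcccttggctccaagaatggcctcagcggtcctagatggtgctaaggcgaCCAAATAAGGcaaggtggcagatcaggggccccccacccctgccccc
Acta2: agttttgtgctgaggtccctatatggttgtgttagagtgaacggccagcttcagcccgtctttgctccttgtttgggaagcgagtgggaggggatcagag
Over the whole window of 250 bases before to 50 after the start, a CArG box was found 73 bases before the start in Acta1, 47 in Actc1 and 90 in Actg1. The start is the one annotated in RefSeq, and whether it is placed alike in these genes was not tested. The form searched was CCWWWWWWGG, with W for A or T and no mismatch allowed. None was matched in the windows of Acta2, Tpm1, Tpm2, Tpm3 and Tpm4, which says only that this exact form is not there. Both strands read alike since the box is its own reverse complement in form. The bases shown for Acta2 hold ccctatatgg and ccttgtttgg, which each miss this form at a single base. Of all 32851 promoter windows of the table, 1.63% hold an exact match. An E-box, CANNTG, which myogenic regulators bind, occurred in the windows of all 8 genes matched in the table, as it did in 72.3% of all windows. Actb was not matched.

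Across the 8 genes tested, Jag2sm MuSCs had less RNA of the striated actins and of Tpm1 and Tpm2, and more of Tpm4. In the quasi-likelihood test of edgeR, with p-values adjusted by Benjamini-Hochberg over 9489 genes, 5 of the 8 passed at 0.05, 4 lower and 1 higher in Jag2sm. Over all tested genes 6.26% passed, 4.84% lower and 1.42% higher. With the close pairs summed, Tpm2 was the one gene of these 5 that still passed. The median log2 fold change was -1.27 over the 8 genes and 0.05 over all tested genes. In 6 of the 8 the CPM of the genotypes did not overlap, 4 lower and 2 higher in Jag2sm, against 22.5% of all tested genes, 12.2% lower and 10.3% higher. In bulk RNA, fewer cells of a type and less RNA per cell cannot be told apart.

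**Figure D1:**
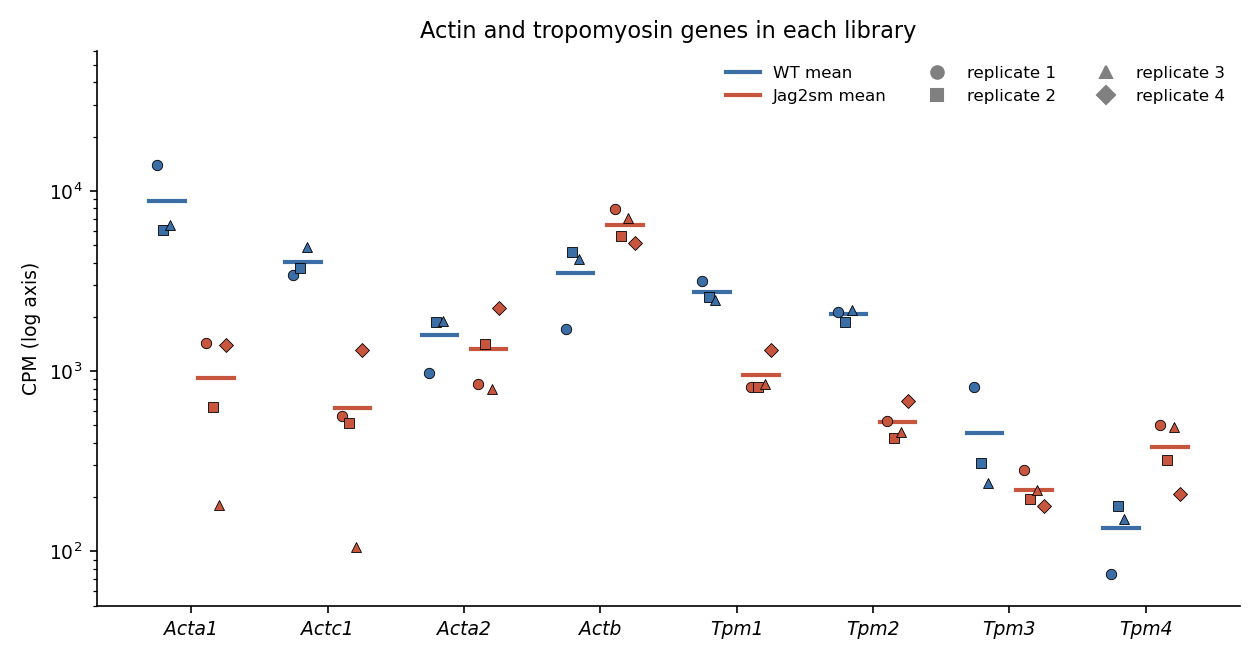
Each point is the CPM of 1 gene in 1 library on a log axis, blue for WT and red for Jag2sm, with the marker giving the replicate number and the line the mean of the genotype. Acta1, Actc1, Tpm1 and Tpm2 sit lower in every Jag2sm library than in every WT library, and Actb and Tpm4 sit higher. Actg1, which was not tested, is not drawn.

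Acta1 encodes the skeletal muscle α-actin, the main actin of the adult sarcomere, and lies at chr8:124618501-124623661 of GRCm39 on the minus strand. It had 13944, 6071 and 6459 CPM in WT replicates 1 to 3 and 1442, 634, 181 and 1390 CPM in Jag2sm replicates 1 to 4. The lowest WT library stood above the highest Jag2sm library, and WT replicate 1 and Jag2sm replicate 3 lay farthest out. The means were 8825 ± 4438 (SD, n = 3) and 912 ± 611 (SD, n = 4). Acta1 was 9.68-fold lower in Jag2sm, a log2 fold change of -3.28 ± 0.630 (SE) with an edgeR adjusted p of 0.0132. On log2 CPM, the exact two-sided permutation test over the 7 libraries gave p = 0.0286, the smallest it can give. Within batches 1, 2 and 3 of the labels the log2 difference was -3.27, -3.26 and -5.14. Without the shallow WT replicate 1 the log2 fold change was -2.80 and the edgeR adjusted p 0.0334. The call was lost without Jag2sm replicate 2 (edgeR adjusted p = 0.0565) and with the close pairs summed (edgeR adjusted p = 0.0756).

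Actc1 encodes the cardiac α-actin, which is also the embryonic form of skeletal muscle and of newly made myotubes (chr2:113876266-113884043, minus strand). The WT libraries had 3436, 3728 and 4902 CPM, and the Jag2sm libraries 567, 514, 106 and 1311 CPM. All Jag2sm values lay below all WT values, with Jag2sm replicate 3 again the lowest and replicate 4 the highest of its genotype. From 4022 ± 776 CPM (SD, n = 3) in WT the mean went to 625 ± 502 (SD, n = 4), 6.45-fold lower. The log2 fold change was -2.69 ± 0.614 (SE), with an edgeR adjusted p of 0.0278. The exact two-sided permutation test on log2 CPM gave p = 0.0571, since another of the 35 permutations had a mean difference as large. Within batches the log2 difference was -2.60, -2.85 and -5.50. The call held in 3 of the 7 fits that left out a library, and was lost without Jag2sm replicate 1, Jag2sm replicate 2, WT replicate 2 or WT replicate 3, at edgeR adjusted p of 0.0756, 0.0969, 0.0674 and 0.0886, and with the close pairs summed, at 0.104.

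Acta2 encodes the smooth muscle α-actin of vessels, which myoblasts in culture also make (chr19:34217737-34232990, minus strand). It had 980, 1867 and 1902 CPM in WT and 854, 1413, 798 and 2254 CPM in Jag2sm libraries. The genotypes overlapped, and the highest value of all belonged to Jag2sm replicate 4. Means were 1583 ± 523 (SD, n = 3) and 1330 ± 676 (SD, n = 4). The log2 fold change of -0.26 ± 0.40 (SE) did not pass (edgeR adjusted p = 0.781), and its 95% interval ran from -1.14 to 0.63. Within batches the log2 difference was -0.20, -0.40 and -1.25. The last 301 bases of the Acta2 transcript, 10.8% of its length, overlap an exon of Stambpl1 on the opposite strand. Without a stated strand setting for the counting, reads of the 2 genes there cannot be told apart. If strand was ignored, htseq, the counting program, would in its usual mode count such reads for neither gene. Whether Acta2 lost reads in this way was not tested. Stambpl1 had 4 to 32 counts in WT and 34 to 64 in Jag2sm libraries, where Acta2 had 5065 counts over the WT and 7034 over the Jag2sm libraries.

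Actb encodes the cytoplasmic β-actin, the main actin of dividing nonmuscle cells and a common reference gene in RT-qPCR (chr5:142888870-142892509, minus strand). WT libraries had 1706, 4566 and 4191 CPM and Jag2sm libraries 7992, 5651, 7075 and 5128 CPM. Every Jag2sm library lay above every WT library, and the shallow WT replicate 1 lay far below the other WT libraries. The means were 3488 ± 1554 (SD, n = 3) in WT and 6462 ± 1311 (SD, n = 4) in Jag2sm. At a log2 fold change of 0.89 ± 0.382 (SE), 95% interval 0.04 to 1.73, Actb did not pass (edgeR adjusted p = 0.226). On log2 CPM, the exact permutation test gave p = 0.0286. Within batches the log2 difference was 2.23, 0.31 and 0.76, and without WT replicate 1 the log2 fold change was 0.55.

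Actg1 encodes the cytoplasmic γ-actin (chr11:120236512-120239617, minus strand), and its counts were near 0. They were 0, 8 and 2 in WT and 1, 7, 20 and 5 in Jag2sm libraries, at most 9.85 CPM. In WT replicate 1 the count of 0 allows up to 17.3 CPM. The exons of 3 other annotated genes overlap those of Actg1. A miRNA entry on the same strand, Gm55891, shares 83 bases of the canonical transcript and had 0 counts in every library, and 0610009L18Rik on the opposite strand shares 159. Reads on more than 1 gene are counted for none of them by htseq in its usual mode, and such ambiguous reads made up 8.05% to 9.74% of aligned reads. Whether that set the counts of Actg1 was not tested, so they are given as listed and not read as a level of the gene. No other gene here shares exon bases with a gene on its own strand. The processed pseudogenes Actb-ps1 and Actg-ps1 had 0 counts in all libraries.

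Tpm1 encodes the α-tropomyosin of striated muscle and also nonmuscle forms (chr9:66929870-66956953, minus strand, 80 annotated transcripts). WT libraries had 3170, 2581 and 2496 CPM and Jag2sm libraries 816, 819, 850 and 1303 CPM. The genotypes did not overlap, and within Jag2sm only replicate 4 stood away from the others. Tpm1 was 2.90-fold lower in Jag2sm, from 2749 ± 367 (SD, n = 3) to 947 ± 238 (SD, n = 4). The log2 fold change was -1.54 ± 0.271 (SE), with an edgeR adjusted p of 0.00959 and an exact permutation p of 0.0286. Within batches the log2 difference was -1.96, -1.65 and -1.55. Tpm1 passed in all 7 fits that left out a library, with edgeR adjusted p of 0.00736 to 0.0496, but not with the close pairs summed, at 0.0792.

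Tpm2 encodes β-tropomyosin of striated muscle, with a nonmuscle form as well (chr4:43514697-43524949, minus strand, 43 transcripts). It had 2139, 1878 and 2179 CPM in WT and 529, 426, 462 and 681 CPM in Jag2sm libraries. Both genotypes were tight, with a gap between them wider than either range. The means were 2065 ± 163 (SD, n = 3) and 525 ± 112 (SD, n = 4), so that Tpm2 was 3.94-fold lower. Its log2 fold change of -1.98 ± 0.252 (SE) had the smallest edgeR adjusted p of the 8 genes, 0.00285, and an exact permutation p of 0.0286. The within-batch log2 differences of -2.01, -2.13 and -2.23 lay close together. Tpm2 passed in all 7 fits that left out a library, and it was the one gene of the 5 still called with the close pairs summed (edgeR adjusted p = 0.0375).

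Tpm3 encodes slow muscle tropomyosin and widely made nonmuscle forms (chr3:89979949-90008226, plus strand, 56 transcripts). WT libraries had 813, 308 and 240 CPM and Jag2sm libraries 284, 196, 219 and 178 CPM. The genotypes overlapped, and the WT mean of 453 ± 313 (SD, n = 3) was raised by WT replicate 1, against 219 ± 46.5 (SD, n = 4) in Jag2sm. A log2 fold change of -1.0 ± 0.385 (SE), 95% interval -1.85 to -0.15, did not pass (edgeR adjusted p = 0.174). The exact permutation test gave p = 0.0857. Without WT replicate 1 the log2 fold change was -0.34. Within batches the log2 difference was -1.51, -0.64 and -0.13. Tpm3-rs7, a related gene that could share reads with Tpm3, had 1 to 23 counts per library.

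Tpm4 encodes a short nonmuscle tropomyosin of stress fibers and the cell cortex (chr8:72884018-72906987, plus strand, 17 transcripts). It had 74.9, 178 and 152 CPM in WT and 501, 321, 491 and 210 CPM in Jag2sm libraries. All Jag2sm values lay above all WT values, with Jag2sm replicate 4 the nearest to WT. Tpm4 was 2.68-fold higher in Jag2sm, from 135 ± 53.7 (SD, n = 3) to 380 ± 141 (SD, n = 4), and was the only one of the 8 genes to pass as higher. The log2 fold change was 1.42 ± 0.365 (SE), with an edgeR adjusted p of 0.0456 and an exact permutation p of 0.0571. Within batches the log2 difference was 2.71, 0.84 and 1.68. The call was near the threshold and held in 1 of the 7 fits that left out a library, the one without Jag2sm replicate 4. Without the others the edgeR adjusted p was 0.0736 for Jag2sm replicate 3, 0.0839 for WT replicate 2, 0.0887 for WT replicate 1, 0.0890 for Jag2sm replicate 2, 0.0976 for Jag2sm replicate 1 and 0.152 for WT replicate 3. With the close pairs summed it was 0.134. Gm26586, a long noncoding RNA gene on the opposite strand, shares 134 bases of the Tpm4 transcript and had at most 3 counts in a library.

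**Figure D2:**
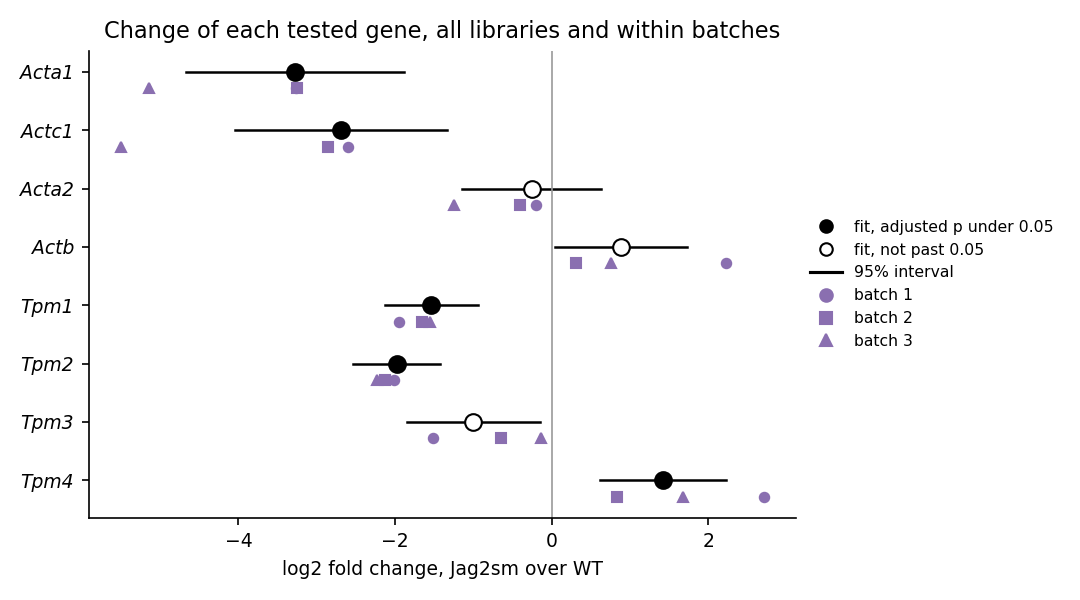
Circles give the log2 fold change of Jag2sm over WT from the edgeR fit with its 95% interval, filled where the adjusted p was under 0.05, and the purple symbols below them give the difference in log2 CPM within batches 1, 2 and 3. All within-batch differences of Acta1, Actc1, Tpm1 and Tpm2 are negative and all of Actb and Tpm4 are positive. These signs follow from genotypes that do not overlap in these genes. In batch 3 the differences of Acta1 and Actc1 are -5.14 and -5.50.

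How the mix of isoforms differed was read within each library, where no scaling between libraries is needed. The actin sum takes Actg1 as counted, near 0 and not read as a level, so actin shares are shares of the counts as listed. Among these counts, the cytoplasmic Actb took the largest share in every Jag2sm library and Acta1 in every WT library. Acta1 made up 69.5%, 37.4% and 37.0% of the actin counts in WT and 13.3%, 7.71%, 2.22% and 13.8% in Jag2sm libraries. The mean share went from 48.0% ± 18.6 (SD, n = 3) to 9.25% ± 5.43 (SD, n = 4), with an exact permutation p of 0.0286. Actc1 held 17.1%, 23.0% and 28.1% in WT and 5.22%, 6.26%, 1.30% and 13.0% in Jag2sm libraries, again without overlap. The mean share of Actc1 was 22.7% ± 5.48 (SD, n = 3) against 6.44% ± 4.86 (SD, n = 4), with an exact permutation p of 0.0286. With counts divided by canonical transcript length the difference was -9.17 instead of -16.3 percentage points, at an exact permutation p of 0.0571. Acta1 and Actc1 together therefore made up 60.3% to 86.6% of actin counts in WT and 3.52% to 26.8% in Jag2sm libraries.

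Actb had 8.50%, 28.1% and 24.0% of actin counts in WT and 73.6%, 68.8%, 86.6% and 50.8% in Jag2sm libraries. Its mean share was 20.2% ± 10.3 (SD, n = 3) and 70.0% ± 14.8 (SD, n = 4), with an exact permutation p of 0.0286. Within batches the difference was 65.1, 40.7 and 62.6 percentage points, positive in any pairing since the genotypes did not overlap. Acta2 had 4.88%, 11.5% and 10.9% in WT and 7.87%, 17.2%, 9.77% and 22.3% in Jag2sm libraries, which overlapped (exact permutation p = 0.286). Shares of a sum are not independent, so a smaller share of the striated actins makes the others larger. Actg1 took at most 0.121% in any library. What the actin shares would be if reads of Actg1 or Acta2 were lost in counting was not tested, and leaving Actg1 out of the sum does not bear on it.

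Among tropomyosin counts, Tpm1 held 51.2%, 52.2% and 49.3% in WT and 38.3%, 46.5%, 42.1% and 55.0% in Jag2sm libraries, with overlap and an exact permutation p of 0.257. The share of Tpm2 was 34.5%, 38.0% and 43.0% in WT and 24.8%, 24.2%, 22.9% and 28.7% in Jag2sm libraries. It went from 38.5% ± 4.27 (SD, n = 3) to 25.1% ± 2.51 (SD, n = 4), without overlap and with an exact permutation p of 0.0286. Tpm3 had 13.1%, 6.22% and 4.74% in WT and 13.3%, 11.1%, 10.8% and 7.49% in Jag2sm libraries (exact permutation p = 0.314). Tpm4 had 1.21%, 3.61% and 3.00% in WT and 23.5%, 18.2%, 24.3% and 8.83% in Jag2sm libraries. All Jag2sm shares of Tpm4 exceeded all WT shares, at means of 2.60% ± 1.25 (SD, n = 3) and 18.7% ± 7.11 (SD, n = 4), with an exact permutation p of 0.0571. Of the 9 shares tested, 4 had an unadjusted exact permutation p under 0.05, those of Acta1, Actc1, Actb and Tpm2, and that of Actc1 was no longer among them per canonical length. The shares were not recomputed with the close pairs summed, where this test has too few splits to give a p under 0.05. The 95% Clopper-Pearson interval of a single share was at most 6.06 percentage points wide in WT replicate 1 and at most 4.97 in the other libraries, and covers counting error only.

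**Figure D3:**
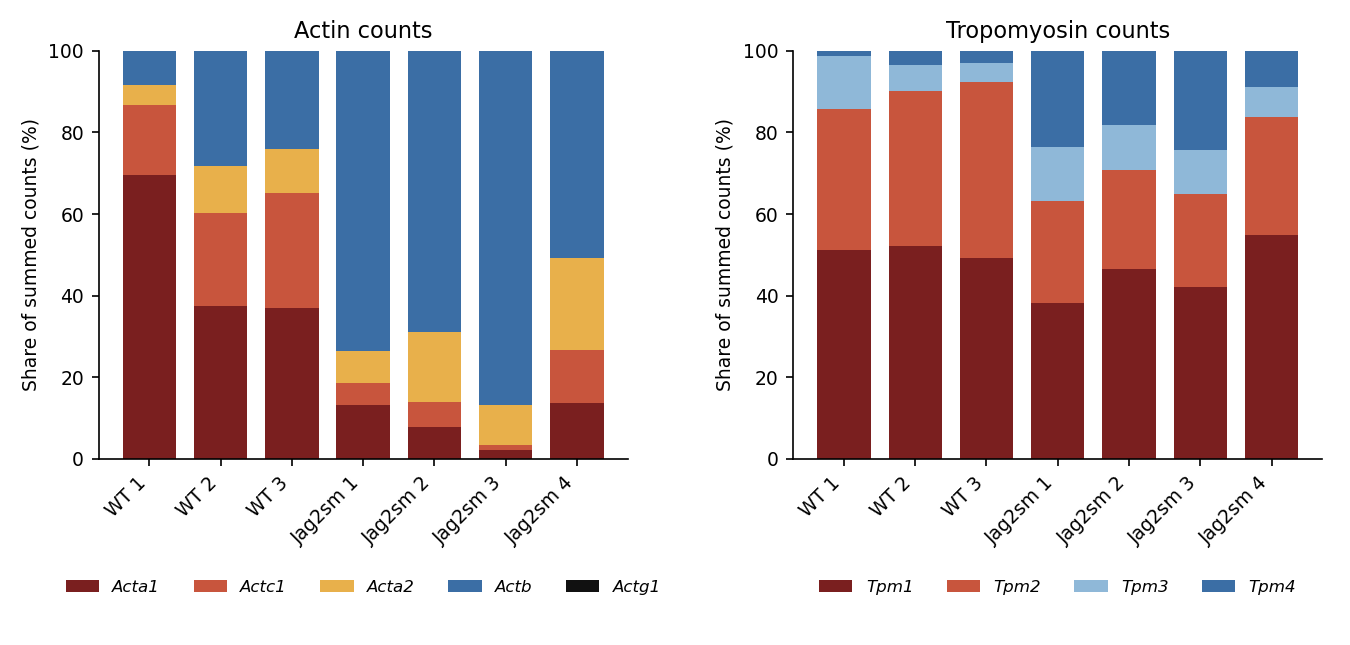
Bars show, for each library, the share in percent of each gene in the summed counts of the 5 actin genes (left) and of the 4 tropomyosin genes (right). Blue for Actb fills 50.8% to 86.6% of the actin bar in Jag2sm libraries and 8.50% to 28.1% in WT libraries, and the share of Tpm4 in dark blue is 8.83% to 24.3% and 1.21% to 3.61%. Actg1 is too small to be seen.

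Ratios of related genes within a library showed which pairs changed unequally. The log2 ratio of Tpm3 to Tpm4 was 3.39, 0.79 and 0.66 in WT and -0.82, -0.71, -1.16 and -0.24 in Jag2sm libraries. Tpm3 had more counts than Tpm4 in every WT library and fewer in every Jag2sm library, a difference of -2.34 in mean log2 ratio with an exact permutation p of 0.0286. This ratio separated the genotypes, although Tpm3 alone did not pass the test on its CPM. Without WT replicate 1 the difference was -1.45. The log2 ratio of Tpm1 to Tpm2 was 0.57, 0.46 and 0.20 in WT and 0.62, 0.94, 0.88 and 0.94 in Jag2sm libraries, a difference of 0.44. These values did not overlap, yet the exact permutation p was 0.0571. For Acta1 to Acta2 the difference was -3.24, with an exact permutation p of 0.0571 and no overlap. Acta1 to Actc1 overlapped, at 2.02, 0.70 and 0.40 in WT and 1.35, 0.30, 0.77 and 0.08 in Jag2sm libraries, and the difference of -0.42 had an exact permutation p of 0.457. The 2 striated actins were thus not shown to differ in their change, and the difference without WT replicate 1 was 0.074. The ratio of Actb to Actg1 rests on counts of Actg1 that are near 0 (difference 0.50, exact permutation p = 0.571). Of the 5 ratios, 1 had an unadjusted p under 0.05 by the exact permutation test. With the close pairs summed the ratios were not recomputed, and this test could then give no p under 0.05.

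**Figure D4:**
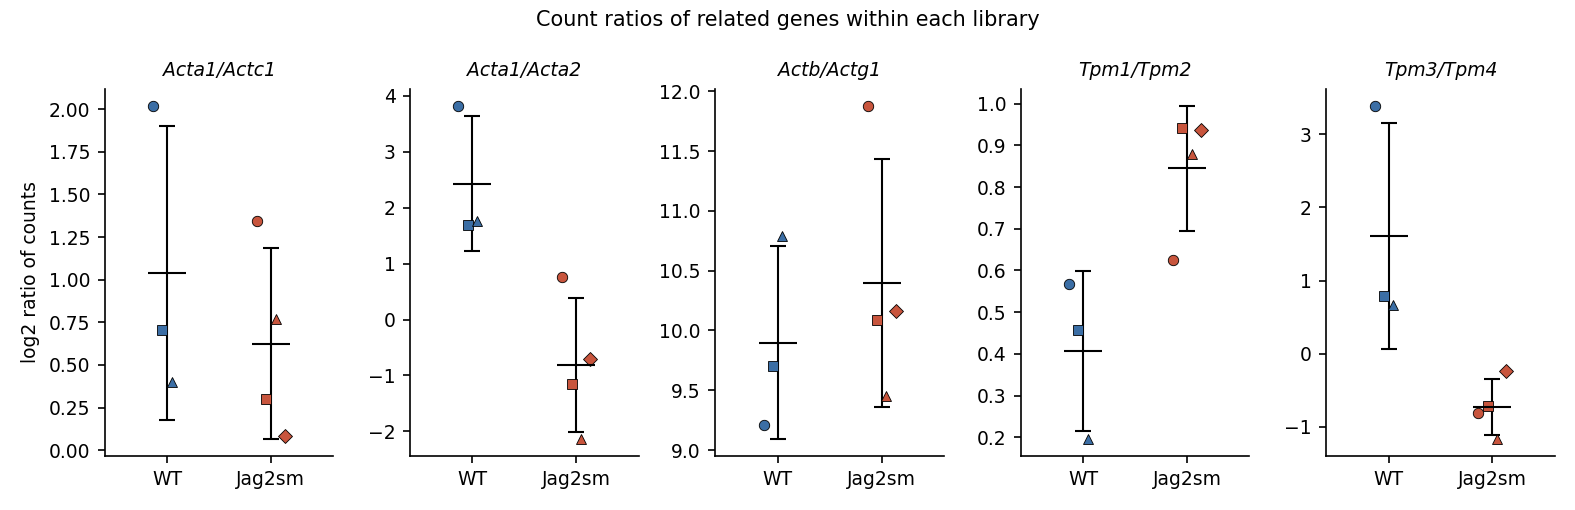
Each panel plots the log2 ratio of the counts of 2 genes in each library, blue for WT and red for Jag2sm (circle, square, triangle and diamond for replicates 1 to 4), with the mean and SD in black and an axis of its own. The ratio of Tpm3 to Tpm4 is above 0 in all WT and below 0 in all Jag2sm libraries, whereas that of Acta1 to Actc1 overlaps.

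Summed over the family, actins had 16238 to 20066 CPM in WT and 8171 to 10857 in Jag2sm libraries, without overlap. Tropomyosins had 4945 to 6197 CPM in WT and 1762 to 2371 in Jag2sm libraries. Actin counts were 3.24 to 3.44 times the tropomyosin counts in WT and 4.04 to 5.10 times in Jag2sm libraries. As a share of all reads on genes, the actins took 1.65% ± 0.178 (SD, n = 3) in WT and 0.962% ± 0.144 (SD, n = 4) in Jag2sm, and the tropomyosins 0.498% ± 0.0641 and 0.213% ± 0.0249. These sums take Actg1 and Acta2 as counted, and they were described and not tested.

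Levels of different genes were ordered as CPM per kilobase of the longest annotated transcript. In WT, Acta1 stood highest at 4351 ± 2188 (SD, n = 3), followed by Actb at 1547, Actc1 at 1088, Tpm1 at 676, Tpm2 at 630, Acta2 at 568, Tpm3 at 136 and Tpm4 at 52.2. The WT libraries overlapped between Actb and Actc1, between Tpm1 and Tpm2 and between Tpm2 and Acta2, so these neighbors were not separated. In Jag2sm, Actb stood first at 2865 ± 581 (SD, n = 4), followed by Acta2 at 477, Acta1 at 450, Tpm1 at 233, Actc1 at 169, Tpm2 at 160, Tpm4 at 147 and Tpm3 at 65.9. Only Actb was separated from the next gene, and all neighbors from Acta2 down to Tpm3 overlapped in their CPM per kilobase. With the length of the canonical transcript instead, Tpm1 moved above Actc1 in WT, and in Jag2sm Acta1 moved above Acta2 and Tpm4 above Actc1.

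Most other genes that build or regulate the thin filament of the sarcomere were also lower in Jag2sm. Of 20 such genes 18 were tested, and 14 were lower and 0 higher by edgeR's adjusted p, with a median log2 fold change of -3.02. That is 77.8% called, beside 6.26% of all tested genes, of which 4.84% were lower. The list sum was 12072 to 24458 CPM in WT and 701 to 3482 in Jag2sm libraries. Lmod2, a leiomodin that lengthens the filament, had a log2 fold change of -4.0 ± 0.512 (SE, edgeR adjusted p = 0.00285). Tmod1, a tropomodulin that caps the pointed end, had -3.34 ± 0.75 (SE, edgeR adjusted p = 0.0260). The inhibitory troponins Tnni1 of slow fibers and Tnni2 of fast fibers, which act through tropomyosin, had log2 fold changes of -3.36 and -3.30 (edgeR adjusted p = 0.00605 and 0.00539). The log2 fold changes of Tpm1 and Tpm2 were smaller in size than the median of this list.

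Filament turnover, for which all cells carry nucleators, cappers and severing proteins, was read from a list of 31 genes. Of these 29 were tested, 1 was higher and 2 lower, 10.3% beside 6.26% of all tested genes, and the median log2 fold change was 0.29. The genotypes did not overlap in 12 of the 29, 9 higher and 3 lower. Over all tested genes 22.5% did not overlap, 10.3% higher and 12.2% lower. The gene called higher was Arpc1b, a subunit of the Arp2/3 complex that nucleates branched filaments, at 1.25 ± 0.300 (SE, edgeR adjusted p = 0.0331). Cap2, a cyclase-associated protein made in striated muscle, had -2.30 ± 0.433 (SE, edgeR adjusted p = 0.0123), and Enah, of the Ena/VASP family, had -1.30 ± 0.289 (SE, edgeR adjusted p = 0.0249). Among 20 tested genes of 21 for bundling, crosslinking and anchoring of actin, in which the intermediate filament gene Vim was included, 1 was called, and it was lower. That was Flnc, the filamin of muscle, at -1.80 ± 0.380 (SE, edgeR adjusted p = 0.0192), beside a median of 0.51. The genotypes did not overlap in 9 of the 20 tested genes of this list, 6 higher and 3 lower, beside 22.5% of all tested genes. Serum response factor, its MRTF coactivators and smooth muscle genes made a list of 21, of which 15 were tested, with a median log2 fold change of 0.32. In it 1 gene passed, Smtn, a smooth muscle cytoskeletal protein, at -1.57 ± 0.256 (SE, edgeR adjusted p = 0.00701). Without overlap, 2 of the 15 genes were higher and 2 lower, near the share of all tested genes. The shares called in the bundling and serum response factor lists, 5.0% and 6.67%, were near that of all tested genes. Srf itself had 47.8 to 92.2 CPM in WT and 71.9 to 92.1 in Jag2sm libraries, which overlapped. Tagln and Cnn1, smooth muscle markers, were too low to be tested.

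**Figure D5:**
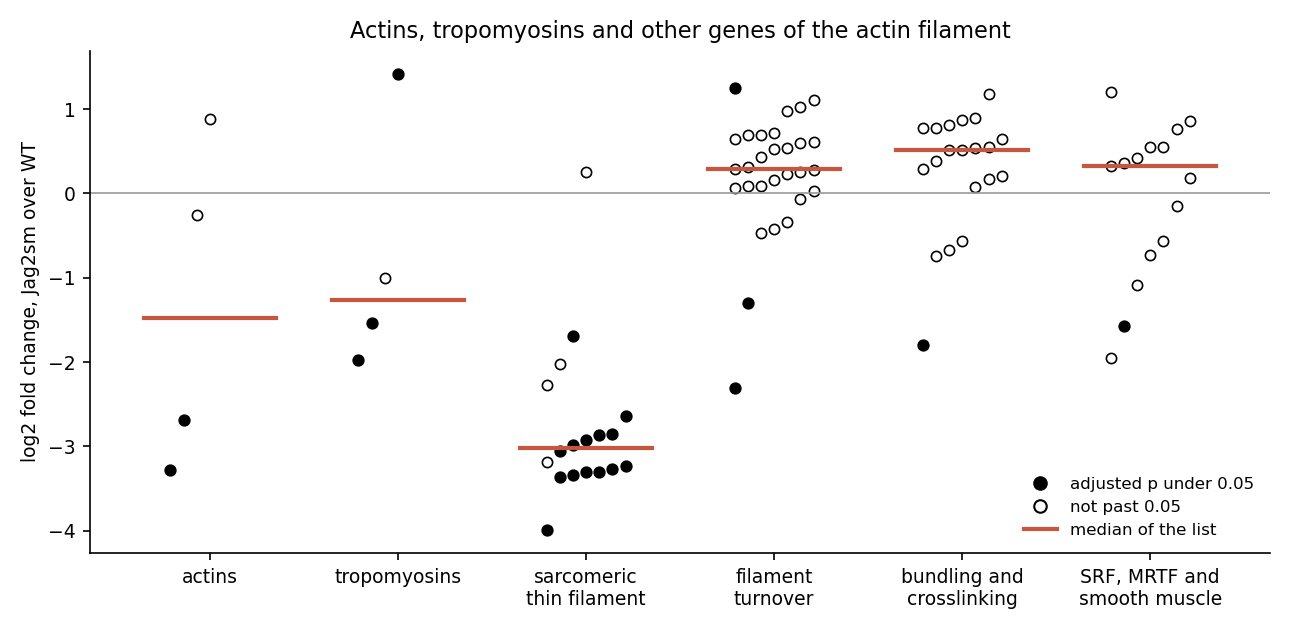
Each point is the log2 fold change of 1 tested gene in Jag2sm over WT, filled where the edgeR adjusted p was under 0.05, and the red line is the median of the list. The sarcomeric thin filament list lies almost wholly below 0 with a median of -3.02, while the medians of filament turnover, bundling, and serum response factor lists are 0.29, 0.51 and 0.32.

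Markers of differentiated muscle moved with the striated actins and with Tpm1 and Tpm2. Of 11 markers 10 were tested and all 10 were called lower in Jag2sm, beside 4.84% of all tested genes. Their median log2 fold change was -3.30. The summed level of the list was 8352 to 15362 CPM in WT and 369 to 2407 in Jag2sm libraries. The largest changes were in Myf6, a myogenic transcription factor (-4.33), Myh8, the perinatal myosin heavy chain (-3.88), Mef2c, a transcription factor of muscle genes (-3.83), and Actn2, the sarcomeric α-actinin (-3.66). Among the 10 MuSC and myoblast markers 1 was called, Des, the muscle intermediate filament, at -1.63 ± 0.361 (SE, edgeR adjusted p = 0.0244), and the median was 0.07. Mural markers, which bear on Acta2 because vessel smooth muscle carries it, summed to 54.1 to 98.0 CPM in WT and 45.7 to 653 in Jag2sm libraries. The highest sum, in Jag2sm replicate 1, was 645 CPM of Rgs5 alone, with Pdgfrb, Kcnj8, Abcc9 and Myh11 at 0 there. Of these 7 genes 3 were tested, and Abcc9 was called lower. Rgs5 was higher in every Jag2sm library than in every WT library but did not pass (edgeR adjusted p = 0.135). Mcam overlapped between the genotypes. The part of these cell populations in the results for the actins and tropomyosins was not tested. The defining smooth muscle gene Myh11 had 0 counts over the WT and 2 over the Jag2sm libraries. Glial markers summed to at most 5.66 CPM, and among 3 tenocyte markers Scx was tested and lower (-1.34).

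The genes most like each actin and tropomyosin were listed by Pearson's r of log2 CPM over the 7 libraries, as a description. All genes share these libraries, which fall into 2 genotypes that overlap for Acta2 and Tpm3 and not for the others. Acta1 was most like Casq2, the calcium-binding protein calsequestrin-2 of the sarcoplasmic reticulum (r = 0.998), Ppfia4 and the troponin gene Tnnt2. Actc1 was most like Fndc5 (r = 0.996), Dpep1 and Tubb2a, a β-tubulin. The values of Acta2 went with those of C1qtnf3 (r = 0.995), Pnma8b and Mdfi, an inhibitor of myogenic factors. For Actb the nearest genes were Rbpms2 (r = 0.996), Frg1 and Acot7. Tpm1 and Tpm2 shared Wdr44 among their 3 nearest genes, at r = 0.997 and 0.991, beside Rbm24 and Sypl1 for Tpm1 and Fmnl1 and Sema3d for Tpm2. Among the genes nearest to Tpm3 were Kalrn and Pmepa1, and Tpm4 was nearest to Myh10, a nonmuscle myosin heavy chain (r = 0.989), Tmem98 and Adgrg3.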

How the data were processed

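MuSC RNA from 3 WT and 4 Jag2sm samples was made into direct cDNA libraries and read on PromethION flow cells. Per the paper's methods and the labels, the authors called bases with dorado, used minimap2 2.17 for alignment to GRCm39 and htseq to count reads per gene, and deposited the raw counts of each library. The annotation release and the version, mode and strand setting of htseq are not given in the sources used here. The authors' table of their own DESeq2 comparison (mean, log2 fold change, SE, p and adjusted p) was not used. Summary rows, among them reads on no gene (20.8% to 45.1% of aligned reads) and ambiguous reads (8.05% to 9.74%), were left out of library sizes and tests.

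The genotypes were compared with edgeR 4.0.16 in R 4.3.3. Its filterByExpr (minimum count 10, minimum total count 15) left 9489 genes, libraries were scaled by TMM, and glmQLFit and glmQLFTest were run without covariates. Called genes had a p under 0.05 after Benjamini-Hochberg adjustment. The log2 CPM used a prior count of 2, and ratios of counts added 0.5 to each count. Permutation tests were exact and two-sided on the mean difference over the 35 splits of 7 libraries, and Clopper-Pearson intervals at 95% came from SciPy 1.17.1 in Python 3.11.15. The limit of a count of 0 was taken as 3 counts. Both cover counting error only. Of the identifiers, 56017 were found in GENCODE M39, from which locations, lengths and coding sequences come. Coding sequences were aligned with Biopython 1.88. The edgeR, DESeq2 and limma-voom tests were checked on simulated counts, in which all 7 libraries were independent and no pair was close. The permutation test was checked only on small made-up sets of values.

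The labelled batch numbers equal the replicate numbers, so WT and Jag2sm replicates 1, 2 and 3 share a batch; what a batch marks is not stated. Deviations of genes from the genotype mean correlated between libraries of a batch at 0.0740, 0.0144 and 0.0539 across genes, which are not independent replicates. The batch as a paired block was an alternative fit.

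The genes and lists were chosen with earlier results of these data known. Named genes are the 9 actin and tropomyosin genes, up to 4 called genes of largest change per list without overlap between genotypes, and the 3 genes of highest Pearson r for each tested gene of the 9, of which 1 gene is not reported here. Jag2, Srf, Pax7, Myod1, Rgs5, Pdgfrb, Kcnj8, Vim, Myh11, Tagln, Cnn1 and the genes overlapping or resembling the 9 were named beside them after their values were seen. Alternatives were DESeq2 1.42.0, limma-voom (limma 3.58.1), other scalings and filters, counts thinned to the smallest library, each library left out, and, chosen after seeing the data, the close pairs summed, shares per canonical length and shares without Actg1.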

Additional observations from a re-analysis of the deposited data

Results flagged for a closer look

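Within the 4 Jag2sm libraries, 1 of 22 values examined was set apart by Dixon's criterion, that of Tpm1 in log2 CPM. Replicate 4 had 1303 CPM where the other Jag2sm libraries had 816 to 850, and the gap took up 0.911 of the range of the genotype, above the critical value for 4 samples. Chance alone sets apart about 1 in 20 such groups. The WT libraries, at 2496 to 3170 CPM, lay above replicate 4 too. In that library Actc1, Acta2 and Tpm2 were also at their highest within Jag2sm, at 1311, 2254 and 681 CPM, and Actb, Tpm3 and Tpm4 at their lowest, at 5128, 178 and 210 CPM. Without replicate 4 the log2 fold change of Tpm1 kept its direction and its call.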

How the results depend on the processing

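Depth limited WT replicate 1, in which 3 counts make 17.3 CPM. Actg1 had 20 counts in the deepest library, and the cause of its low counts was not tested. The count of called genes, 594, was 274 with at least 10 counts in every library, 278 with counts thinned to the smallest library, 158 with the close pairs summed and 1248 with no filter, and 251 to 616 with a library left out. DESeq2 called 788, limma-voom 612 and the replicate block 565; the block changed no call of the 8 genes. With the close pairs summed (fewer samples), the log2 fold changes of Acta1, Actc1, Tpm1 and Tpm4 were -3.50, -2.86, -1.63 and 1.71 and no longer passed. With no filter Tpm3 passed at -0.91 (edgeR adjusted p = 0.0438; 0.0438 to 0.427 over its alternatives), and the cause was not tested. Per canonical transcript length the difference in the share of Actc1 was -9.17 percentage points (exact permutation p = 0.0571). The difference in the log2 ratio of Acta1 to Actc1 turned to 0.074 without WT replicate 1.

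With a library left out, log2 fold changes ran from -3.58 to -2.80 for Acta1, -3.35 to -2.33 for Actc1, -0.63 to -0.07 for Acta2, 0.55 to 1.14 for Actb, -1.72 to -1.43 for Tpm1, -2.12 to -1.88 for Tpm2, -1.32 to -0.34 for Tpm3 and 1.19 to 1.68 for Tpm4. The ratio of Acta1 to Actc1 ran from -0.74 to 0.074. Called genes numbered 11 to 15 in the thin filament list, 1 to 4 for turnover and 0 to 2 for bundling. Scaling by library size alone moved the median log2 fold change of all genes from 0.05 to 0.21. Of the values recomputed, 16 no longer passed, 1 newly passed, 1 reversed and 13 counts of genes moved. Shares and ratios with a library left out were recomputed without a test. No exact permutation test was rerun with the close pairs summed.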

Other observations

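Some further genes of the lists, picked after their values were seen, had CPM that did not overlap between genotypes although none passed edgeR's adjusted p, as 22.5% of all tested genes did not overlap. Tagln2, a calponin family protein of nonmuscle cells, had 86.5, 273 and 254 CPM in WT and 615, 484, 511 and 353 in Jag2sm libraries (log2 fold change 1.2, edgeR adjusted p = 0.0736). Cald1, caldesmon, which binds actin together with tropomyosin, had 265, 738 and 673 CPM in WT and 981, 899, 1156 and 809.5 in Jag2sm libraries (log2 fold change 0.76, edgeR adjusted p = 0.240). The intermediate filament gene Vim had 1043, 2970 and 2714 CPM in WT and 4324, 3821, 4704 and 3574 in Jag2sm libraries (log2 fold change 0.87, edgeR adjusted p = 0.219). In these 3 genes, as in Actb and Tpm4, WT replicate 1 was the lowest library of all. The values of others lay below those of WT without overlap and without passing: Cnn3, a calponin, had 564 to 709 CPM in WT and 331 to 475 in Jag2sm libraries (log2 fold change -0.74, edgeR adjusted p = 0.0839), and Vcl, vinculin of cell adhesions, had 34.9 to 69.2 CPM in WT and 17.2 to 32.5 in Jag2sm libraries (log2 fold change -0.75, edgeR adjusted p = 0.227).

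Rgs5, a marker of pericytes, had 645 CPM in Jag2sm replicate 1, 25.3 to 40.4 CPM in the other Jag2sm libraries and 11.5 to 14.2 CPM in WT libraries. The genotypes did not overlap, but Rgs5 did not pass (log2 fold change 3.73, edgeR adjusted p = 0.135). In Jag2sm replicate 1, where 3 counts make 4.24 CPM, Pdgfrb, Kcnj8, Abcc9 and Myh11 had 0 counts. Pdgfrb and Kcnj8 were low everywhere, at most 5.76 and 0.99 CPM in any library. Cspg4 had 1.41 CPM there, against 2.07 to 5.42 in the other Jag2sm libraries and 4.74 to 28.8 in WT. Mcam had 7.07 CPM, against 2.96 to 13.9 in the other Jag2sm libraries and 11.5 to 22.0 in WT. Acta2 in Jag2sm replicate 1, at 854 CPM, lay within the 798 to 2254 CPM of the other Jag2sm libraries. The part of mural cells in these values was not tested. Actg2, the enteric smooth muscle actin, had 7 counts over the WT and 17 over the Jag2sm libraries.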
